A study of Arabidopsis thaliana with 116 samples.

Results

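FACT (AT5G63560, on chromosome 5) encodes a fatty alcohol:caffeoyl-CoA caffeoyl transferase of Arabidopsis thaliana. It was measured by 1 probe set, the only one annotated to it, in developing seeds of 116 recombinant inbred lines; it is 1 of 13356 genes that have a probe set of their own here. It was selected on its signal in these 116 lines, which varied widely without splitting them into modes, and the genes set beside it were chosen by their correlation with that signal. Its spread, its level and its correlations with other genes are therefore given as description and without a test. Its differences between the sets of lines and at marker genes elsewhere in the genome were not used in that choice and were tested.

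The lines descend from Col 0 crossed with C24 in both directions, each line fixes a mixture of both genomes, and none was treated. Names of 59 lines began with Q and those of 57 with R; the labels do not say which direction a letter marks. Per line 1 pool was made of seeds dissected from 8 siliques of each of 6 plants at 10 to 11 days past flowering, under long days (16 h light, 20 °C; 8 h dark, 16 °C). Each line was hybridised to 1 Affymetrix array, so no value has an error within a line, p-values measure the spread between lines, and the number of arrays limits the precision. Values are log2 signals made by the authors with RMA, a method that corrects background, brings arrays to 1 distribution and summarises the probes of a gene; it compresses differences at the dim end. A probe that differs in sequence between the parents hybridises unequally, so a signal can differ between lines by sequence as well as by level. Medians of the 116 arrays lay between 5.84 and 5.99, and pairs of arrays correlated at 0.959 or more. In bulk seeds, fewer cells of a type and less RNA per cell cannot be told apart.

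FACT belongs to the BAHD family of acyltransferases, which join an acyl group from a coenzyme A thioester to an alcohol or amine. FACT takes the caffeoyl group, a product of the phenylpropanoid pathway, and joins it to long chain fatty alcohols, which gives the alkyl caffeates found among the waxes of suberised roots. Suberin is a polyester of fatty acids, fatty alcohols, glycerol and hydroxycinnamic acids that seals cell walls, and in seeds it is laid down in the seed coat during development. Lipid transfer proteins are small secreted or membrane-anchored proteins that bind lipids and are found at sites of cutin, wax and suberin deposition.

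FACT signal averaged 6.76 ± 1.53 log2 (SD, n = 116 lines), with a median of 6.17. The lowest line, R038, stood at 4.97 and the highest, Q118, at 11.28, a range of 79.6-fold. The lines formed a continuous slope with a long upper tail: 53 lines lay below 6, 43 at 7 or above, 28 at 8 or above, 13 at 9 or above and 5 at 10 or above. The SD of FACT was exceeded by 32 of 22746 probe sets, against a median SD of 0.169. Among probe sets of 1 gene FACT was 16th by SD, just below AT2G18370 at 1.55.

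A mixture of 2 normal components placed the modes of FACT at 5.97 and 8.91, 3.79 SD apart, which is short of the 4 SD asked of a bimodal gene. The 5 highest lines were Q118 at 11.28, R055 at 10.80, Q016 at 10.60, Q070 at 10.14 and Q153 at 10.05. The 5 lowest were R038 at 4.97, R162 at 5.12, R177 and R060 at 5.18 each and Q213 at 5.18. The lowest lines differed from each other by far less than the highest did. No detection call was used here, so whether the lowest values lie above background was not tested.

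**Figure D1:**
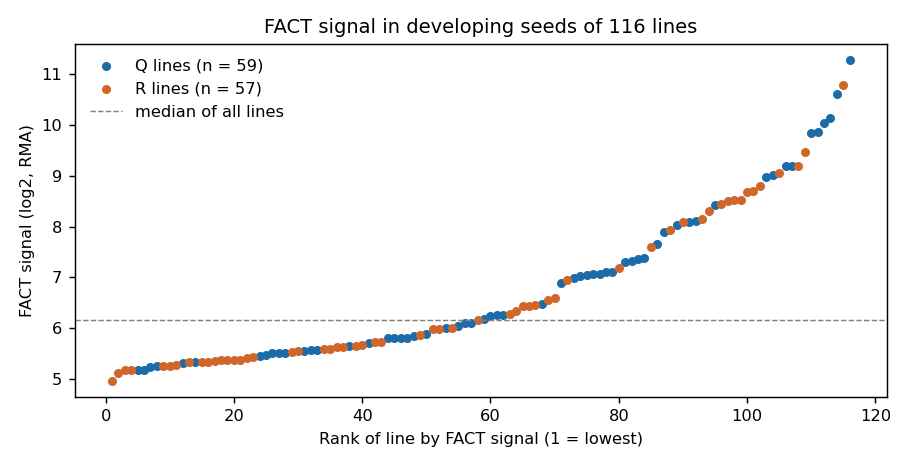
FACT signal in log2 (vertical axis) of each line against its rank (horizontal axis), with Q lines in blue, R lines in orange and the median of all lines dashed. The signal rises slowly to the median of 6.17 and then steeply to 11.28, with both letters along the whole slope.

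The letter was the first contrast of the design, since crosses made in opposite directions pass on different organelle genomes. FACT in Q lines had its lowest value at 5.18, its median at 6.25 and its highest at 11.28. In R lines the lowest was 4.97, the median 5.98 and the highest 10.80, so the letters overlapped over nearly their whole range. The Q mean was 6.94 ± 1.58 (SD, n = 59) and the R mean 6.57 ± 1.45 (SD, n = 57). Q exceeded R by 0.38 ± 0.278 log2 (SE), which did not pass (limma, adjusted p = 0.49). The 95% interval of the difference ran from -0.17 to 0.93, which leaves room for a difference of nearly 1 log2 at this number of lines. Of all probe sets 3.07% passed between the letters, 1.83% as higher and 1.24% as lower in Q lines. Lines at 8 or above numbered 14 among Q and 14 among R lines, and lines at 10 or above 4 and 1.

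AT3G58550 and AT2G18370, both of the lipid transfer protein family, were the named genes whose signal was most like that of FACT, and the genes after them were of mixed families. The measure of likeness was Pearson's r over the 116 lines, and the 15 highest and 10 lowest genes with a probe set of their own were taken. Over all 22745 other probe sets the median r was -0.0011, with 37 at 0.7 or above and 54 at -0.5 or below. At 0.8 or above there were 12 probe sets, of which 6 had a gene name here and 6 did not, and at 0.9 or above 5, of which 2 were named. Gene families of loci known only by a locus tag are given as background from general knowledge, since the gene table held here lists no description for them.

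AT3G58550, of the lipid transfer protein family, followed FACT most closely of all probe sets (r = 0.98, Spearman's rho = 0.97). Its signal ran from 4.69 to 11.49, and it stood at 11.38 in Q118, 11.40 in R055, 11.49 in Q016, 11.05 in Q070 and 11.18 in Q153. In R038, R162, R177, R060 and Q213, the 5 lines lowest in FACT, it stood at 5.16, 5.20, 4.84, 4.76 and 5.47. The slope was 1.15 log2 of AT3G58550 per log2 of FACT, and the 13 lines highest in FACT were also the 13 highest in AT3G58550. The correlation was 0.98 in Q lines and 0.97 in R lines.

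AT2G18370, also of the lipid transfer protein family, had r = 0.92 and rho = 0.95 and spanned a 95.4-fold range. The 5 lines highest in FACT had AT2G18370 at 11.90, 11.80, 12.08, 11.67 and 11.59, and the 5 lowest at 6.32, 5.82, 5.78, 6.01 and 7.09. In these 5 lowest lines FACT lay between 4.97 and 5.18 and AT2G18370 between 5.78 and 7.09. Only Q213 read 7.09 for AT2G18370, and the others read 6.32 or less. The 13 highest lines were again the same for both genes.

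AT1G24430, another member of the BAHD family, and CCR2, a cinnamoyl-CoA reductase that acts on the coenzyme A esters of the phenylpropanoid pathway, followed FACT less tightly. AT1G24430 had r = 0.83 and a 9.59-fold range, reaching 7.97 in R055 and 6.63 in Q118. CCR2 had r = 0.80 and an 11.9-fold range, with 8.02 in R055, 7.70 in Q118 and 4.75 in R162. Of the 13 lines highest in FACT, 7 were among the 13 highest in AT1G24430 and 8 among the 13 highest in CCR2. These genes thus shared the general order of lines with FACT and differed in which lines led.

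AT3G16280, of the ERF transcription factor family, had r = 0.85 over a range of only 5.32-fold, and 12 of its 13 highest lines were shared with FACT. The gene cwINV6, listed as a fructan exohydrolase of the cell wall invertase group, had r = 0.83 but rho = 0.66. It lay between 3.77 and 4.47 in the 5 lines lowest in FACT and at 6.28 in Q118 and 6.02 in Q016, and its 13 highest lines were the same as those of FACT. The gap between r and rho goes with this shape, in which cwINV6 left its low level in the lines where FACT was high.

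**Figure D2:**
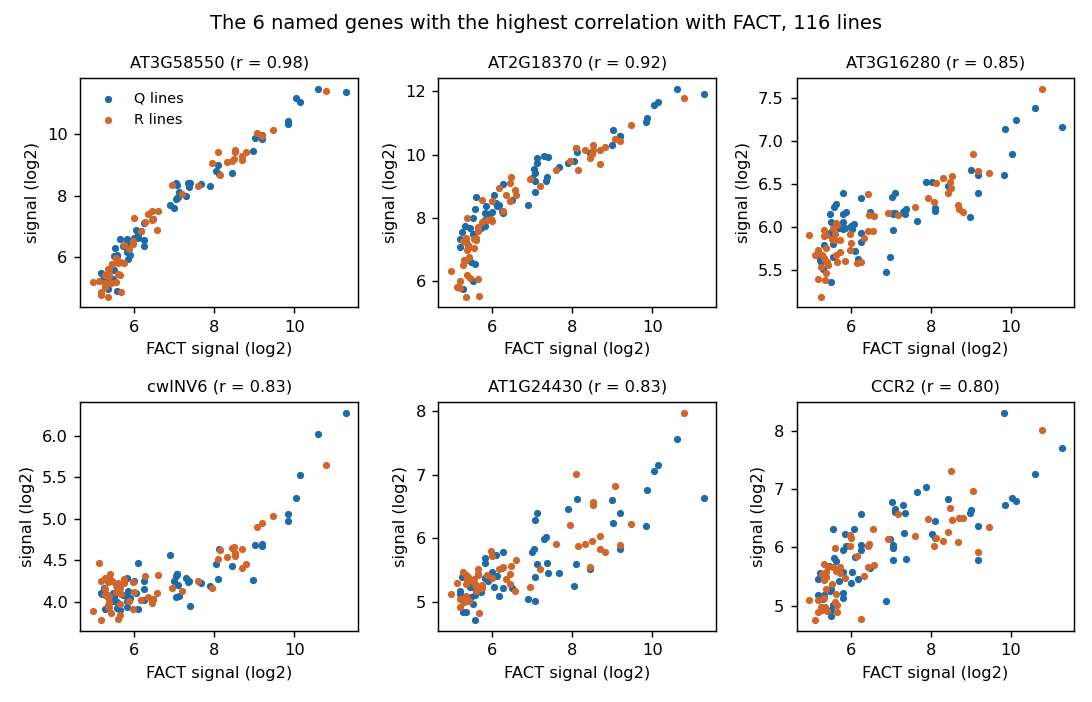
Signal in log2 of the 6 named genes with the highest correlation with FACT (vertical axes) against FACT signal in log2 (horizontal axes), 1 point per line, Q in blue and R in orange. AT3G58550 and AT2G18370 rise over the whole range of FACT, while cwINV6 stays near 4 until FACT is high.

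The other 9 genes on the positive side had r between 0.71 and 0.77. They were AT1G54540 (r = 0.77), of the hydroxyproline-rich glycoprotein type; AT4G19720 (0.76), of the glycoside hydrolase family that holds chitinases; and IRX15-L (0.75), which acts in xylan deposition in secondary walls. AT2G36670 (0.74) and AT2G03200 (0.71) are of the aspartyl protease family, AT1G59780 (0.74) of the NB-LRR immune receptor family and AT3G48450 (0.71) of the RIN4-like family. AT1G08940 (0.73) and AT5G43910 (0.73) completed the set, and the next gene, AT1G18390, had 0.70. Ranges were smaller than that of FACT, from 2.45-fold for AT5G43910 to 17.9-fold for AT2G03200. The 15 genes lay on all 5 chromosomes, with 5 on chromosome 1 and 3 on chromosome 5, and pairs among them correlated between 0.48 and 0.95.

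Genes with negative correlations were less tightly tied to FACT. AT1G49840 had the lowest r at -0.67, and AT1G12330 had -0.64. AT5G15180, of the class III peroxidase family, had -0.63; it read 5.99, its lowest value, in Q118, over a 12.6-fold range. ATPMEPCRD, a pectin methylesterase, which removes methyl groups from cell wall pectin, had -0.60 over a 49.6-fold range and was likewise lowest in Q118, at 5.69. AT1G49580, of a calcium-dependent protein kinase related family, had -0.62, and LSH5, a gene of the LIGHT SENSITIVE HYPOCOTYLS family, had -0.60. AT2G48030 and AT4G38050, a gene of the xanthine and uracil permease family, were at -0.57, and AT1G07280 and AT5G40830 were at -0.57 too. Q118, the line highest in FACT, was also the lowest line of AT1G12330, AT1G49580, LSH5, AT2G48030 and AT1G07280. Without the 2 lines farthest from the FACT median r of the 10 genes ran from -0.61 to -0.51. Their rho over all lines ran from -0.62 to -0.50, with AT1G12330 at -0.50.

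Correlations with FACT differed between genes in how far they outlived the removal of broad variation. The first principal component of all other probe sets held 12.8% of their variance and accounted for 35.4% of the variance of FACT; the first 5 accounted for 58.9%. With 5 components removed from all genes, r was 0.94 for AT3G58550, 0.80 for AT2G18370, 0.75 for cwINV6, 0.68 for AT1G24430, 0.63 for AT3G16280 and 0.52 for CCR2. It was 0.21 for AT4G19720 and 0.066 for AT2G03200. On the negative side it ran from -0.47 for AT1G12330 to -0.0056 for AT5G40830. Of the 15 highest genes 10 stayed among the 15 highest, and of the 10 lowest 1 stayed among the 10 lowest.

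**Figure D3:**
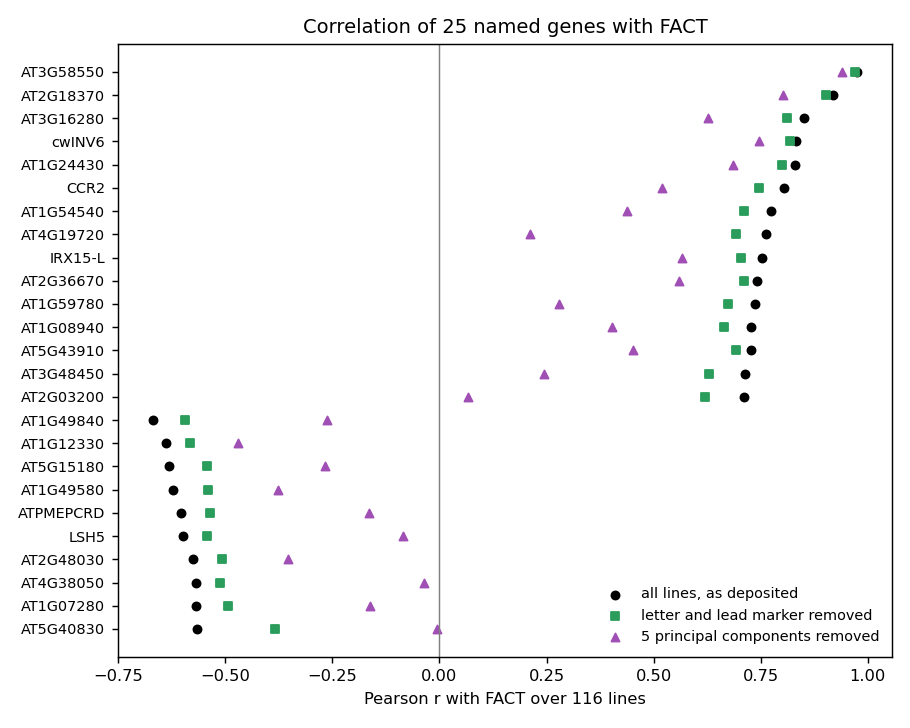
Pearson's r with FACT (horizontal axis) of the 15 highest and 10 lowest genes, over 116 lines as deposited (circles), with letter and lead marker score removed (squares) and with 5 principal components removed (triangles). AT3G58550 stays at 0.94 or above in all 3, while AT2G03200 falls to 0.066 and AT5G40830 to -0.0056 once the components are removed.

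Genes of the suberin, cutin, wax and phenylpropanoid pathways were read from lists, but only 18 of the genes on 12 lists, the tissue markers below included, could be matched to a named probe set, so the pathways are seen only in part. LTPG15 (AT2G48130), a lipid transfer protein of suberin and the only 1 of 12 suberin synthesis genes measured, averaged 11.15 ± 0.479 log2 (SD, n = 116) and had r = 0.42 and rho = 0.55 with FACT. With 5 components removed its r was -0.31. HCT, which makes the shikimate ester on the way to caffeoyl-CoA and the only 1 of 15 phenylpropanoid genes measured, averaged 10.33 ± 0.221 and had r = 0.29, or -0.098 with the components removed. The direction of both genes thus depended on that setting. WSD1, a wax ester synthase and the only 1 of 12 wax genes measured, stood at 3.34 ± 0.123 and had r = 0.26, or 0.11 with the components removed. None of the 5 suberin export, 7 suberin transcription factor and 14 cutin genes could be read.

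The BAHD relatives of FACT on the list, 8 of 16 measured, had r between -0.014 and 0.29, with a median of 0.061 beside -0.0011 for all probe sets. SDT, a spermidine disinapoyl transferase, was highest at 0.29 and averaged 8.81 ± 0.214, and HCT followed. AT4G13840 (CER26), which acts in wax chain elongation, averaged 11.17 ± 0.241 and had r = -0.0082. SHT, CHAT, BAT1, AT5MAT and AT2G25150 had r from -0.014 to 0.12. Their means ran from 3.16 log2 for AT2G25150 to 4.69 for AT5MAT, with SDs from 0.0952 to 0.127. At such low levels and small spreads their r says little on whether they follow FACT. AT1G24430, described above, was not on the list.

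Markers of seed tissues were read beside FACT. All 4 seed coat genes measured, of 18 listed, had negative r: DFR at -0.40, the subtilase gene ARA12 at -0.40, BAN at -0.33 and AT3G50990 at -0.26. With 5 components removed these directions did not hold: DFR turned to 0.20, and ARA12, BAN and AT3G50990 stood at -0.016, 0.0012 and 0.0059. DFR and BAN make proanthocyanidin precursors, and the others act in mucilage release. The photosynthesis genes measured, PORB and LHCB4.1, had r of -0.39 and -0.28, and 0.056 and -0.031 with the components removed. The endosperm genes AGL62 and IKU2 had r of -0.10 and 0.068, and 0 of 10 embryo maturation genes and 0 of 5 silique wall genes could be read. Of 5 storage genes listed after their values were known, PAP85, OLEO3, AT2G28490 and AT1G03890 had r of 0.34, 0.28, 0.25 and 0.17 and AT3G01570 had -0.028. With the components removed PAP85, AT2G28490 and AT1G03890 turned to -0.13, -0.057 and -0.011, and OLEO3 stood at 0.070. All 5 averaged above 13 log2, and since they were listed with their values known, this is no check of the tissue label.

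The study set out to map loci that move with transcript levels. Its own markers were not analysed here; instead bimodal genes, each splitting the lines into a lower and an upper mode, served as markers, and the posterior of the upper mode was the score. FACT passed at 36 markers (61 at unadjusted p under 0.05), on chromosome 5 at 19 of 32, on chromosome 3 at 12 of 22, on chromosome 4 at 4 of 21, on chromosome 1 at 1 of 30 and on chromosome 2 at 0 of 19. Neighbouring markers split nearly the same lines, so these are far fewer separate regions than 36. Having some marker was common, since 67.6% of all probe sets passed at 1 or more markers.

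The smallest p of FACT was at AT5G39520, on chromosome 5. Another chromosome led in 3 other settings: AT3G17680 on chromosome 3 in R lines alone, AT4G02540 on chromosome 4 with an RNA integrity covariate, and AT1G55890 on chromosome 1 with 5 principal components as covariates. In the 56 lines of its lower mode FACT had its lowest value at 4.97, its median at 5.69 and its highest at 9.20. In the 60 lines of the upper mode the lowest was 5.18, the median 7.09 and the highest 11.28, so the modes overlapped but every line above 9.20 lay in the upper mode. From one end of the score to the other FACT changed by 1.36 ± 0.261 log2 (SE, n = 116; limma, adjusted p = 8.21e-05), or 2.57-fold, and letter and score together accounted for 20.2% of its variance. At this marker 8.03% of all probe sets passed. Modes of AT5G39520 are 1.23 log2 and 4.37 SD apart, and AT5G38780 nearby, which differed from it in 4 of 116 lines, gave 1.31 ± 0.262 (adjusted p = 0.000186). Modes of AT5G38780 are 4.68 SD apart. Markers on either side with modes farther apart gave changes smaller in size. They were -1.04 at AT5G38180 (13.96 SD) and -0.93 at scpl42 (14.35 SD; limma, adjusted p = 0.00695 and 0.0215), the sign depending on which mode is the upper. A marker score is read from a transcript signal, and the part in it of expression shared with FACT was not tested. The modes are not assigned to a parent.

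AT5G39520 lies far from the FACT gene. FACT is gene 7872 of its chromosome in the order of the annotation and AT5G39520 is gene 4739. The nearest marker, AT5G58980, lies 563 genes before FACT and gave a change of 0.18 ± 0.312 (adjusted p = 0.842), and AT5G56370, 894 genes before, gave 0.42 ± 0.284 (adjusted p = 0.486). No marker lies beyond FACT, so its own end of the chromosome was not covered. Of 20 genes within 10 places of FACT, 6 had a probe set, with r from -0.35 for AT5G63630 to 0.090 for AT5G63520. The rest of these neighbours could not be read.

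**Figure D4:**
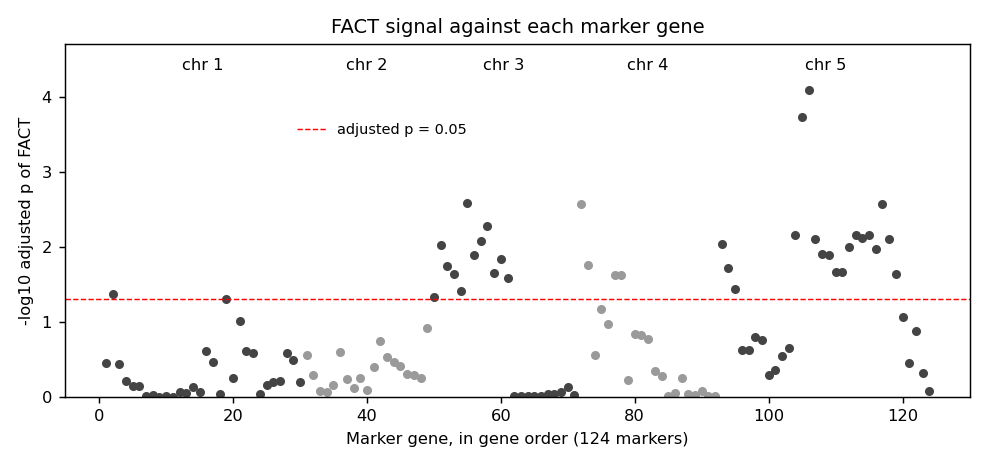
The negative log10 of the adjusted p of FACT (vertical axis) at each marker gene in gene order (horizontal axis), chromosomes in alternating greys and the threshold of 0.05 as a dashed line. The highest point is AT5G39520 on chromosome 5, groups of markers on chromosomes 3, 4 and 5 lie above the line, and none on chromosome 2 does.

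A further region, at the start of chromosome 4, moved with FACT once AT5G39520 was in the fit. Toward the upper mode of AT4G02540 FACT fell by 1.04 ± 0.248 log2 (SE; limma, adjusted p = 0.00371), where 11.8% of all probe sets passed, 5.26% as higher and 6.52% as lower. By itself this marker gave -1.16 (adjusted p = 0.00272). The 75 lines in its lower mode ran from 5.18 to 11.28 with a median of 6.90, and the 41 in its upper mode from 4.97 to 9.47 with a median of 5.58. With both markers and the letter 30.8% of the variance of FACT was accounted for. Each marker was picked by its smallest p for FACT in these same lines, which tends to raise such shares of variance. The modes of AT5G39520 and AT4G02540 differed in 45.7% of lines.

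Lines sorted by both markers showed where high FACT occurred. In the 41 lines with the upper mode of AT5G39520 and the lower mode of AT4G02540 FACT averaged 7.82 ± 1.64 (SD), with a median of 8.03 and 21 lines at 8 or above. In the 22 lines with the opposite pair it averaged 5.70 ± 0.763, with a median of 5.47 and 1 line at 8 or above. The other lines lay between, at 6.40 ± 1.12 (n = 34) and 6.34 ± 1.23 (n = 19). Even in the first class 9 lines were below 6, so the classes overlapped.

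**Figure D5:**
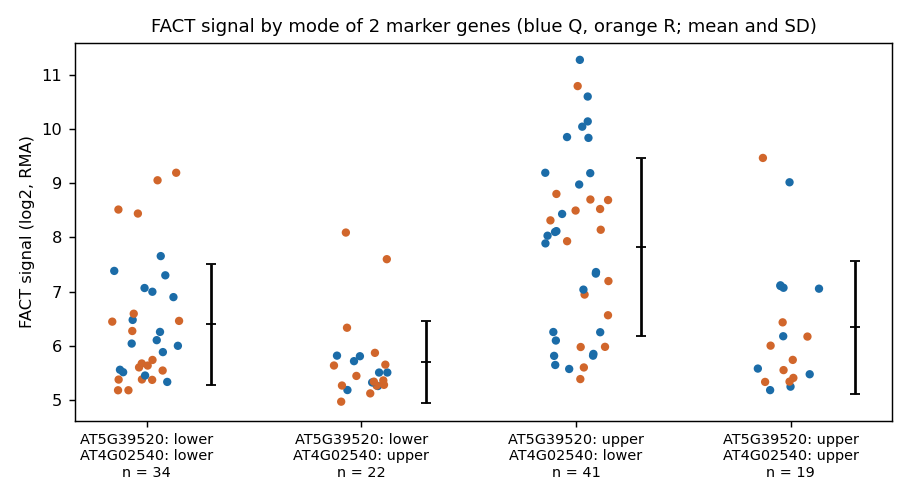
FACT signal in log2 (vertical axis) of each line, in the 4 classes given by the modes of AT5G39520 and AT4G02540 (horizontal axis), with Q lines in blue, R lines in orange and the mean and SD of each class in black. The class with upper AT5G39520 and lower AT4G02540 averages 7.82 and holds the highest lines; the opposite class averages 5.70.

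With both markers in the fit, a step added after these results were seen, AT5G02230 at the start of chromosome 5 gave 0.89 ± 0.225 (SE; limma, adjusted p = 0.00753; 2.55% of all probe sets passed). It differed from AT5G39520 in 44.8% of lines, and 39.1% of the variance of FACT was then accounted for. On chromosome 3, AT3G17680 gave -1.16 by itself (limma, adjusted p = 0.00263) and -0.83 with AT5G39520 in the fit (adjusted p = 0.06). Some other markers there passed in that fit, among them AT3G04200 at 0.87 (adjusted p = 0.0264) and AT3G19010 at -0.81 (adjusted p = 0.0437). On chromosome 1, AT1G55890 (-0.86, adjusted p = 0.0247) and 2A6 (0.86, adjusted p = 0.0301) passed too. With AT4G02540 also in the fit AT3G04200, AT3G19010 and AT1G55890 still passed (adjusted p = 0.0312, 0.0486 and 0.0274), and 2A6 did not (0.0773). The change at AT5G39520 did not differ between the letters by test: the interaction was 0.46 ± 0.523 (adjusted p = 0.991), with a 95% interval from -0.58 to 1.49. In that test 0% of all probe sets passed.

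The calls at AT5G39520 and AT4G02540 went with variation shared by many genes. The first principal component correlated with FACT at -0.59, with the AT5G39520 score at -0.46 and with the AT4G02540 score at 0.37. With 5 components as covariates the change of FACT at AT5G39520 was -0.28 (adjusted p = 0.739) and at AT4G02540 -0.61 (adjusted p = 0.229). The part of this shared variation in the calls was not tested. RNA integrity, read as the gap in signal between 3' and 5' controls, correlated with FACT at r = -0.19 (permutation p = 0.037, adjusted over 2 measures 0.0739) and rho = -0.21 (adjusted p = 0.0468), and at -0.20 without its 2 farthest lines, -0.17 in Q and -0.25 in R lines. With it as covariate the change at AT5G39520 was 1.30, still past the threshold, and AT4G02540 became the leading marker.

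The genes most like FACT had the same directions at these markers, which their choice makes likely and which is no independent support. At AT5G39520 all 15 genes of the positive side rose, where 4.43% of all probe sets rose, and 9 of 10 of the negative side fell (AT4G38050, at -0.14, did not pass), where 3.6% fell. Among those that fell, AT5G40830 lies by locus number between AT5G39520 and the marker AT5G41250, where its p was smallest. It fell by 0.74 at AT5G39520 (limma, adjusted p = 1.15e-24). Its r with FACT was -0.57, and -0.39 with letter and lead marker score removed. The part of its own location in its call was not tested. AT3G58550 changed by 1.61, AT2G18370 by 1.37, AT2G03200 by 1.16, CCR2 by 0.75 and AT1G24430 by 0.45 log2. With AT5G39520 in the fit, 12 of the 15 fell toward the upper mode of AT4G02540, where 6.52% of all probe sets fell. On that side cwINV6, AT1G24430 and AT1G59780 did not pass. Of the 10 genes on the negative side only 1 passed there: ATPMEPCRD rose by 0.96, where 5.26% of all probe sets rose. Leading markers differed: AT3G16280 led at AT3G17680 (-0.50), AT1G24430 and AT1G59780 at AT3G19010 (-0.60 and -0.50), and cwINV6 at AT5G02230 (0.27). Between the letters 0 of the 25 passed, where 3.07% of all probe sets did.

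Listed pathway and tissue genes passed at these markers in a few cases. LTPG15 (AT2G48130) rose by 0.35 at AT5G39520 (adjusted p = 0.00271), and HCT (0.078) and WSD1 (0.054) did not pass. Of the 8 BAHD relatives 0 passed at AT5G39520, where 8.03% of all probe sets did. At AT4G02540, where 11.8% of all probe sets passed, 1 of the 8 did: SDT fell by 0.22 toward the upper mode (adjusted p = 3.33e-06). Neither count stands apart from its background, and SHT, CHAT, BAT1, AT5MAT and AT2G25150, at means of 4.69 log2 or less, could add little to either. AT4G13840 (CER26) was the only listed gene to pass between the letters, at 0.18 higher in Q lines. Of the 4 seed coat genes DFR fell by 0.44 at AT5G39520 (limma, adjusted p = 5.14e-06), and ARA12, BAN and AT3G50990 did not pass. DFR (AT5G42800) is on the same chromosome, by locus number between AT5G42280 and ETFBETA (AT5G43430), markers at which FACT also passed. The part of its own location in its call was not tested. The summed level of the 4 ranged from 11.06 to 12.10 log2 in the lower mode of AT5G39520 and from 11.01 to 12.07 in the upper. The medians of that sum were 11.54 and 11.35. At AT4G02540 the medians of that sum were 11.43 in the lower and 11.59 in the upper mode. PORB rose by 0.28 toward the upper mode of AT4G02540 (adjusted p = 0.0412), with the summed level of the 2 photosynthesis genes between 10.50 and 11.74 in the lower and 10.19 and 11.97 in the upper mode, and medians of 11.10 and 11.18. At AT5G39520 the medians of that sum were 11.19 in the lower and 11.04 in the upper mode. At both markers the medians of the seed coat and photosynthesis sums thus differed in the direction opposite to FACT, while their ranges overlapped. The sum of the 2 endosperm genes did not share this pattern. Its medians in the lower and upper mode were nearly equal at AT5G39520, at 4.897 and 4.891. At AT4G02540 they were 4.906 and 4.876, the direction of FACT. These medians were not tested, and each sum rests mostly on its brightest gene. ARA12 averaged 11.06 log2 against 8.68 or less for the other seed coat genes, and LHCB4.1 averaged 11.03 against 7.35 for PORB. Neither ARA12 nor LHCB4.1 passed at either marker.

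Some storage genes passed in the direction of FACT, by small amounts; only OLEO3 of the 5 did so at both markers. At AT5G39520 OLEO3, an oleosin of seed oil bodies, rose by 0.077 (limma, adjusted p = 0.00336) and AT2G28490 by 0.054 (adjusted p = 0.0151), 2 of the 5 where 4.43% of all probe sets rose. OLEO3 (AT5G51210) is on the same chromosome as AT5G39520, and the part of its own location in that call was not tested. Toward the upper mode of AT4G02540 PAP85 fell by 0.081 (adjusted p = 0.00211) and OLEO3 by 0.082 (adjusted p = 0.000666), 2 of the 5 where 6.52% fell. This list was drawn up after its values were known. The part of these seed coat, photosynthesis and storage differences in that of FACT was not tested.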

How the data were processed

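The deposited values are log2 signals of 22810 probe sets on 116 arrays. RMA is the tool named per the submitters' processing notes; for its version, the genome build and batches the sources used here give nothing. Tests skipped 64 controls; 13513 of the rest had 1 gene, 503 several and 8730 none in the probe annotation held here; 13436 matched a RefSeq table of assembly TAIR10.1 by Entrez ID, used for names and gene order only. FACT had 1 probe set. No sequence of FACT was held, so none is printed.

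Tests used limma 3.58.1 in R 4.3.3 (lmFit, eBayes) on all 22746 probe sets, threshold 0.05 after Benjamini-Hochberg. Markers were nuclear genes with 2 modes (distance 4 SD and 1 log2 or more, minor weight from 0.2, BIC gain from 10); letter was a covariate, p-values were adjusted over all probe sets and markers together, and no gene was tested against itself. Linked markers repeat a call, so this is less strict per probe set than per test; multiplying the smallest p of each probe set by the number of markers is among the alternatives, and 43.4% of probe sets then passed. Scripts were tested on simulated data. Correlations carry no p, except 2 technical measures with 100000 permutations, two-sided. Named genes were the 15 highest and 10 lowest by r, the leading markers, those nearest to FACT, list members and the 5 lines at each end. Members and lists were chosen with earlier results of these data known. Alternatives were other scaling, a filter at a mean of 5 log2, array weights, covariates, other marker scores and subsets of lines. Python 3.11.15, numpy 2.4.6, pandas 2.3.3, scipy 1.17.1 and matplotlib 3.10.9 were used for the rest.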

Additional observations from a re-analysis of the deposited data

How the results depend on the processing

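The change of FACT at AT5G39520 kept its direction and passed in 10 of 12 alternatives. It was -0.28 with 5 principal components as covariates (AT1G55890 then led) and 1.13 in R lines alone (adjusted p = 0.103; AT3G17680 led), against 1.59 in Q lines alone; a fit on R lines alone has fewer lines. Across the 11 alternatives other than the components it ran from 1.13 to 1.59. The change at AT4G02540 passed in 6 of 7, from -1.28 to -0.96, and was -0.61 with the components (adjusted p = 0.229). The Q minus R difference passed in none of 7, from 0.28 to 0.45 and -0.26 with the components; a permutation test gave p = 0.183. The interaction with the letter passed in none of 6 (0.080 to 0.50). Of the 25 genes most like FACT, 24 were again picked with array medians subtracted, 16 by Spearman's rho, 16 in R lines alone and 11 with the components removed, and all 25 kept the sign of r in all 7 settings. For these values the cause of the change with the setting was not tested. Some line numbers occur under both letters, but they name separate lines and nothing in the labels ties them together, so no block was fitted. Signal over background was not read here, which limits what the 53 lines below 6 can show.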
